A study of Mus musculus with 2 samples.

Results

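Insulin and glucagon double-positive barcodes of mouse pancreatic islets are droplet barcodes that held high levels of the mRNAs of both hormones, which islet cells usually make apart from each other. A barcode is the tag that a droplet puts on the RNA of the cell or cells inside it, and a UMI is the tag of 1 captured transcript. A barcode was a member when it had more than 2500 detected genes, under 10% of its UMIs in mitochondrial genes, 300 or more Ins1 and Ins2 UMIs and 100 or more Gcg UMIs per 10000 of its UMIs, under 40 Sst UMIs per 10000, and any level of Ppy. This rule found 350 of 8926 kept barcodes in all, 170 of 4747 in the control library and 180 of 4179 in the library labelled TBL/RβKO. Since the members were chosen by Ins1, Ins2, Gcg and Sst, levels of these genes are given as a description. The set is called double-positive barcodes rather than cells, because a barcode can hold the RNA of more than 1 cell and free RNA from the cell suspension.

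Beta cells make insulin and alpha cells make glucagon, hormones that lower and raise blood glucose. Mice carry a pair of insulin genes, Ins1 and Ins2, and the single gene Gcg for glucagon. The transcription factors Pdx1, Nkx6-1 and Mafa maintain the beta-cell programme, while Irx1 and Irx2 belong to that of alpha cells. Ttr encodes transthyretin, a carrier of thyroid hormone and retinol that is abundant in alpha cells. Cells with both hormones are known from the embryonic pancreas and from studies in which endocrine cells change identity. TBL1X and TBL1XR1 are subunits of the NCoR corepressor complex, which also holds the deacetylase HDAC3 and represses transcription at the sites of nuclear receptors and other factors.

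The promoters of Ins1 and Gcg are shown because their transcripts define the double-positive barcodes. Each runs from 250 bases before to 50 bases after the start of the gene, 5′ to 3′ on the strand of the gene, from RefSeq on GRCm38.p6. Capitals mark the E-box CATCTG, or CAGATG on the other strand, a motif that basic helix-loop-helix factors such as Neurod1 can bind. The Ins1 window lies at chr19:52264047-52264346 on the plus strand and the Gcg window at chr2:62483604-62483903 on the minus strand. A promoter of Ins2 was not matched.
Ins1 promoter: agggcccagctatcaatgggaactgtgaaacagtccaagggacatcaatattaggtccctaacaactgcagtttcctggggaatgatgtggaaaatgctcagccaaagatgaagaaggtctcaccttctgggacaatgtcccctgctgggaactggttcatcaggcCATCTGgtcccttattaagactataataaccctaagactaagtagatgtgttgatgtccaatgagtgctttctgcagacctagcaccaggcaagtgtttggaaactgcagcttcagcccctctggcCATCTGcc
Gcg promoter: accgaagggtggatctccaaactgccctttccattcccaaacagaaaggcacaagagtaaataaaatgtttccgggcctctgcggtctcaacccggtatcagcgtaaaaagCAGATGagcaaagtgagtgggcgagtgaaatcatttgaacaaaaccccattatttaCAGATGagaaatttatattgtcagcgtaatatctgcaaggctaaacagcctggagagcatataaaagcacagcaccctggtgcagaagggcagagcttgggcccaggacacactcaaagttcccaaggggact
Both windows held 2 E-boxes of this spelling, counting both strands. Of the 32851 mouse promoters of this length, 17.2% held at least 1. The homeodomain core TAAT (or ATTA) stood 3 times in the Ins1 window and 2 times in that of Gcg, and 58.0% of promoters held it. The TATA box spelling TATAAA (or TTTATA) was found 2 times in the Gcg window and 0 times in that of Ins1, against 13.6% of promoters. These matches describe the letters and not a bound site.

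Each group gave 1 library of 150 islets pooled from 4 mice aged 5 weeks. Mice of the first group, labelled wildtype and called control here, were the Cre-negative littermates with loxP-flanked Tbl1x and Tbl1xr1. Mice of the other group, labelled TBL/RBKO and written TBL/RβKO by the study, also carried Cre recombinase at the endogenous Ins1 locus, which drives it in beta cells. Islets of both groups were cultured overnight in serum-containing medium before they were dissociated. The pooling leaves no replicate in either group, so no test between groups was possible and every interval printed here is a 95% interval that covers counting error only.

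There were 7067 control barcodes with 241434108 UMIs in all and 5833 barcodes with 185062206 UMIs in the library labelled TBL/RβKO, of which 230508816 and 175863899 lay in kept barcodes. The libraries shared 14 barcode sequences, and 0 members were among them. Within each library the members were set beside an insulin set, with insulin past its limit and Gcg and Sst under theirs (2318 and 886 barcodes), and a glucagon set, with Gcg past its limit and insulin and Sst under theirs (1267 and 1524 barcodes).

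The targeted genes went against the label. Among double-positive barcodes Tbl1x (GRCm39, chrX:76554141-76706597) was at 112 CPM (UMIs of the gene per 1000000 UMIs of the summed barcodes) in the control (95% interval 106 to 118) and at 364 CPM (354 to 375) in the library labelled TBL/RβKO (log2 ratio 1.70). Tbl1xr1 (chr3:22129947-22270770) was at 18.4 CPM (16.1 to 21) and 117 CPM (111 to 123), giving 2.66 as the log2 ratio. The insulin sets showed the same direction with log2 ratios of 1.96 and 2.87, while the glucagon sets showed 0.25 and 0.53. Counts from the 3′ end of transcripts do not show whether the loxP-flanked part was present. Cre was detected in 32 of 180 members of the library labelled TBL/RβKO (17.8%, 12.5 to 24.2), in 20.3% of its insulin set (17.7 to 23.1) and in 0.853% of its glucagon set (0.455 to 1.45). The share in members was below that of the insulin set by 2.54 points, with an interval of the signed difference from -8.52 to 4.35. In the control 0 of 170 members had a Cre UMI, with an exact upper limit of 2.15%.

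The first question was how often the hormones met in 1 barcode. Double-positive barcodes made up 3.58% of kept control barcodes (3.07 to 4.15) and 4.31% of kept barcodes in the library labelled TBL/RβKO (3.71 to 4.97). The difference of 0.726 points had an interval from -0.0971 to 1.56, and its direction was not stable. It was -0.332 points with the study's limit of fewer than 6000 genes (-1.04 to 0.385), -3.14 with hormone limits of 150 and 50 (-4.23 to -2.05) and -1.71 for members with Ppy under 40 per 10000 (-2.31 to -1.12), but 1.48 without the barcodes that the doublet caller Scrublet scored highest (0.823 to 2.16). Barcodes past the Gcg limit and under that of Sst are called Gcg barcodes. Of these, 11.8% (10.2 to 13.6) and 10.6% (9.14 to 12.1) were also past the insulin limit, a difference of -1.27 points (-3.55 to 0.984). Without the highest doublet scores these shares were 5.37% (4.22 to 6.73) and 7.51% (6.28 to 8.90), in the opposite order. Of barcodes past the insulin limit and under that of Sst, 6.83% (5.87 to 7.90) and 16.9% (14.7 to 19.3) were also past that of Gcg, a difference of 10.1 points (7.61 to 12.6). The last pair rests on 2488 such barcodes in the control against 1066 in the library labelled TBL/RβKO, while the Gcg barcodes numbered 1437 and 1704.

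The same limits were passed by barcodes that should make neither hormone. Barcodes with markers of macrophages, endothelial, stromal, B or T cells (at least 3 markers of 1 class with 2 or more UMIs each) passed the insulin limit in 15 of 166 cases in the control (9.04%, 5.15 to 14.5) and in 24 of 298 cases in the library labelled TBL/RβKO (8.05%, 5.23 to 11.7). The Gcg barcodes exceeded these shares by 2.79 points (-2.87 to 7.07) and 2.51 points (-1.45 to 5.74), so an excess was not detectable against this background. The non-endocrine barcodes were not limited by Sst and reached 6119 and 4461 insulin UMIs per 10000. They can hold RNA of a beta cell too, so this comparison cannot decide whether there was an excess. Non-endocrine barcodes also passed the Gcg limit in 6.02% (2.93 to 10.8) and 6.38% (3.88 to 9.78) of cases. Barcodes with 100 or more Sst UMIs per 10000 passed the insulin limit in 42.4% (38.4 to 46.6) and 33.2% (29.8 to 36.7) and the Gcg limit in 26.4% (22.9 to 30.2) and 20.4% (17.6 to 23.5) of cases.

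Insulin mRNA in barcodes of the other cells differed between the libraries. The median over non-endocrine barcodes was 83.0 insulin UMIs per 10000 for control barcodes against 14.5 in the library labelled TBL/RβKO, and that over the glucagon sets was 97.5 and 18.3. Gcg in the insulin sets had medians of 4.89 and 4.62 UMIs per 10000. The limit of 300 lay closer to the median of the glucagon set in the control than in the other library. With free RNA subtracted, members made up 3.10% (2.62 to 3.63) and 4.24% (3.65 to 4.89) of kept barcodes, a difference of 1.14 points (0.343 to 1.95), and 10.3% and 10.4% of the Gcg barcodes. Just under the insulin limit, from 240 to 300, lay 38 control Gcg barcodes and 5 of the library labelled TBL/RβKO, and just above it, up to 360, lay 19 and 10. Beside the Gcg limit, 4 control insulin barcodes lay at 80 to 100 and 6 at 100 to 120, against 12 and 14.

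**Figure D1:**
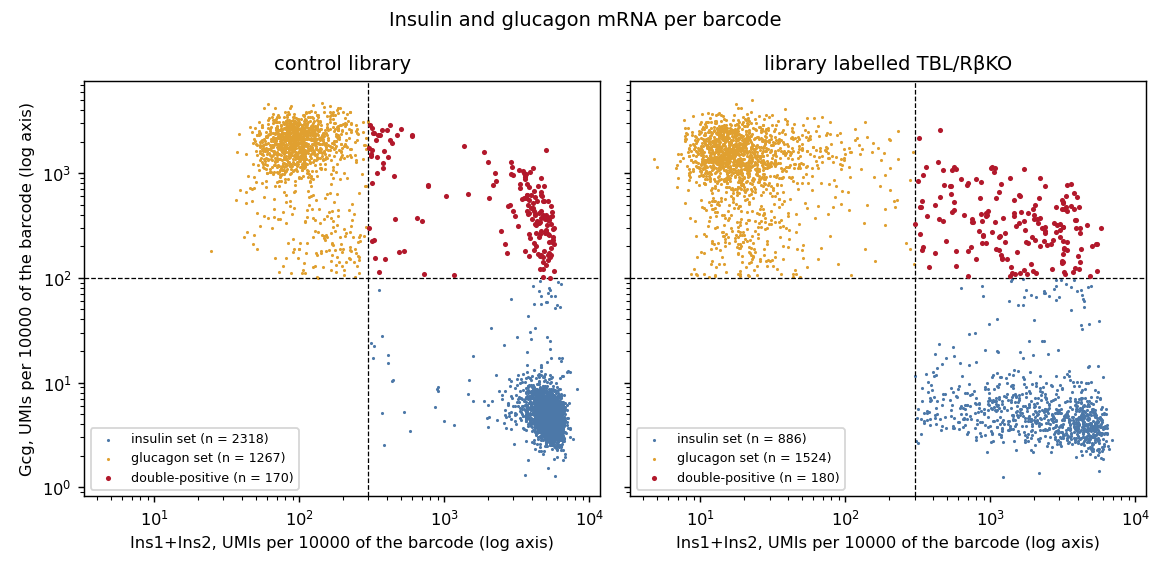
Each point is 1 barcode, with its insulin (Ins1 and Ins2) UMIs per 10000 on the horizontal and its Gcg UMIs per 10000 on the vertical log axis, for the control (left) and the library labelled TBL/RβKO (right), and dashed lines mark the limits of 300 and 100. Of the control members 42 lie under 1000 insulin UMIs per 10000, 19 of them at 300 to 360, and those of the other library spread between 301 and 5765.

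Within the double-positive barcodes insulin mostly exceeded glucagon. Gcg took a median of 12.0% of the UMIs of both hormones in control members (quartiles 5.91 and 30.6%, lowest 1.83%, highest 90.4%) and 16.3% in members from the library labelled TBL/RβKO (8.57 and 33.0%, lowest 2.08%, highest 87.0%). Insulin itself ranged from 303 to 5747 UMIs per 10000 in control members, with a median of 3836, and from 301 to 5765 with a median of 1571 in the other library. Gcg ranged from 100 to 2884 with a median of 434, and from 103 to 2562 with a median of 330. Members of 1 library overlapped those of the other over nearly the whole range of both hormones. Over the summed members Ins1 was at 110512 CPM for the control against 24646 CPM in the library labelled TBL/RβKO, and Ins2 at 308283 and 191275 CPM.

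Members were next split at 1000 insulin UMIs per 10000, a value chosen after the data were seen. The 128 control members with 1000 or more insulin UMIs per 10000 had a median of 80242 UMIs and a median Gcg of 394 per 10000. The other 42 had a median of 12217 UMIs, 378 insulin UMIs and 1443 Gcg UMIs per 10000. In the latter Mafa was at 39.9 CPM (26.1 to 58.5) against 380 CPM (369 to 391) in the former, and Ttr at 5771 CPM (5588 to 5959) against 1759 CPM (1735 to 1784). Irx2, the alpha-cell factor, was at 92.2 CPM (70.3 to 119) against 20.3 CPM (17.7 to 23.1). The median depth of these 42 was below the 19386 UMIs of the glucagon set. The 59 members under 1000 in the library labelled TBL/RβKO were at a median depth of 52808 UMIs with 412 Gcg UMIs per 10000, and the other 121 had 76952 UMIs. Their Ttr was at 1881 CPM (1835 to 1928) in the 59 and 3204 CPM (3169 to 3240) in the 121, the opposite order to the control.

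Double-positive barcodes were deep. Control members held a median of 64272 UMIs (5396 to 221202), against 51958 in the insulin set and 19386 in the glucagon set, whose sum is 71344. The median of the members was 0.901 of that sum. In the library labelled TBL/RβKO the medians were 67510 UMIs (6715 to 198905), 60880 and 18646, and the members were at 0.849 of the sum of 79527. The depth of members depended on which barcodes were kept, more in the control than in the other library. With fewer than 6000 genes the ratios to the sum were 0.231 and 0.441 over 54 and 38 members. That limit takes out deep barcodes by itself, so it cannot test whether members were deep. The control ratio was 0.261 with hormone limits of 150 and 50 and 0.274 without the highest doublet scores. In the library labelled TBL/RβKO the ratio stayed near its 0.849 under these settings, at 0.826 and 0.783. With the hormones taken out the members were at 0.944 of the sum for the control against 0.922 in the other library. Detected genes had medians of 7158 in control members, 5883 in the insulin set and 4763 in the glucagon set, and of 7566, 6569 and 4868 in the library labelled TBL/RβKO. When each barcode was thinned to 5000 UMIs, members detected a median of 1662 and 1950 genes, between the insulin sets (1430 and 1719) and the glucagon sets (2180 and 2290). Barcodes with 6000 or more genes, the upper limit that the study set, made up 68.2% of control members (60.7 to 75.2) and 78.9% of those in the library labelled TBL/RβKO (72.2 to 84.6), against 44.6% and 69.4% of the insulin sets and 13.5% and 12.3% of the glucagon sets.

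Scrublet scores moved with membership. Among the highest scores of each library, 0.8% for every 1000 barcodes, were 99 of 170 control members (58.2%) and 58 of 180 members of the library labelled TBL/RβKO (32.2%). In the insulin sets the shares were 3.41% and 3.27%, and in the glucagon sets 1.34% and 1.44%. The threshold that the caller set by itself marked 84 of 6486 scored control barcodes and 1 of 5346 barcodes of the other library, so it had not worked in the latter. The part of droplets that caught more than 1 cell in the shares and levels given here was not tested.

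**Figure D2:**
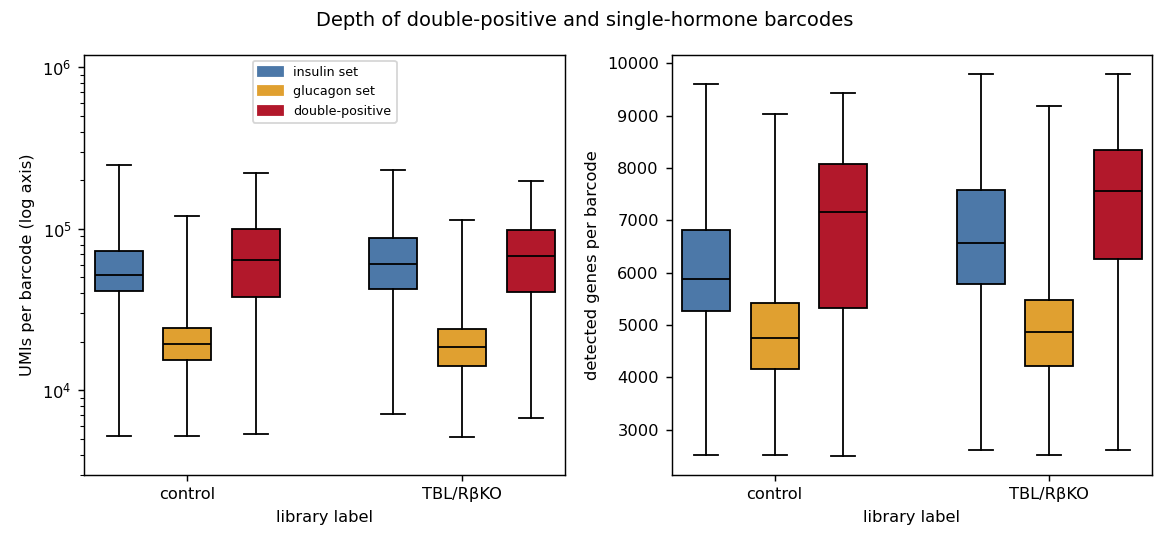
Boxes show UMIs per barcode (left, log axis) and detected genes per barcode (right) with the median, the quartiles and, as whiskers, the lowest and highest value, for the insulin set, the glucagon set and the double-positive barcodes of each library. The members lie above both single-hormone sets by their medians, 64272 and 67510 UMIs.

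Genes of both endocrine programmes were present in the double-positive barcodes at levels between those of the single-hormone sets. To place a gene, its CPM in members was put on a scale on which 0 is the insulin set and 100 the glucagon set of the same library. The 13 of 14 glucagon cell genes that were at least 2-fold apart between the sets lay at a median of 21.8 in the control (17.6 to 26.8) and 22.6 in the library labelled TBL/RβKO (16.5 to 36.8). Gcg itself, which the rule used, lay at 25.9 and 25.1.

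Ttr, which marks alpha cells, was at 1975 CPM in control members, 334 CPM in the insulin set and 7351 CPM in the glucagon set. In the library labelled TBL/RβKO it was at 2864, 1733 and 4806 CPM, so its insulin set already held more. Irx2 (chr13:72776906-72782317) was at 24.1 CPM (21.5 to 27.1) in control members, 1.10 CPM in the insulin set and 111 CPM in the glucagon set. The same order held in the other library, at 20.9 CPM (18.5 to 23.6), 2.11 and 96.5 CPM. Irx2 had a UMI in 66.5% of control members and 66.1% of those in the library labelled TBL/RβKO. Etv1, a transcription factor gene of the ETS family, was at 132 CPM against 17.5 and 553 CPM in the control, and at 173 CPM against 65.2 and 534 CPM in the other library. All 12 of the glucagon cell genes at 10 CPM or more were at least 2-fold higher in members than in the insulin set in the control (median log2 ratio 3.24), as were 10 of 12 in the library labelled TBL/RβKO (3.16). Since the members were chosen by Gcg, these counts describe the choice. Of all genes, 3.07% for the control and 3.25% for the other library were 2-fold higher in members than in the insulin set, and 0.0797% and 0.247% were 2-fold lower.

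Insulin cell genes lay further from the insulin set and were more spread. The 16 of 18 that were 2-fold apart had a median position of 31.6 in the control (7.78 to 42.5) and 41.3 in the library labelled TBL/RβKO (9.07 to 71.7). Mafa (chr15:75617339-75620077), a factor of mature beta cells, was at 362 CPM (351 to 372) in control members, 504 CPM in the insulin set and 20.9 CPM in the glucagon set, a position of 29.4. In the library labelled TBL/RβKO it was at 48.0 CPM (44.3 to 51.9), 114 CPM and 0.707 CPM, a position of 58.2. Slc2a2 (chr3:28752051-28785508), which encodes the glucose transporter GLUT2, lay at 42.5 and 68.4. Ppp1r1a, a regulator of protein phosphatase 1, lay at 18.2 and 71.7, and the ion channel gene Trpm5 at 14.6 and 56.3. Pdx1 and Nkx6-1 went the other way, from 26.5 to 19.1 and from 30 to 22.1. Slc30a8, which encodes the zinc transporter ZnT8 and was higher in the glucagon sets (1737 and 1559 CPM) than in the insulin sets (615 and 153 CPM), lay at 7.78 and 17.3.

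**Figure D3:**
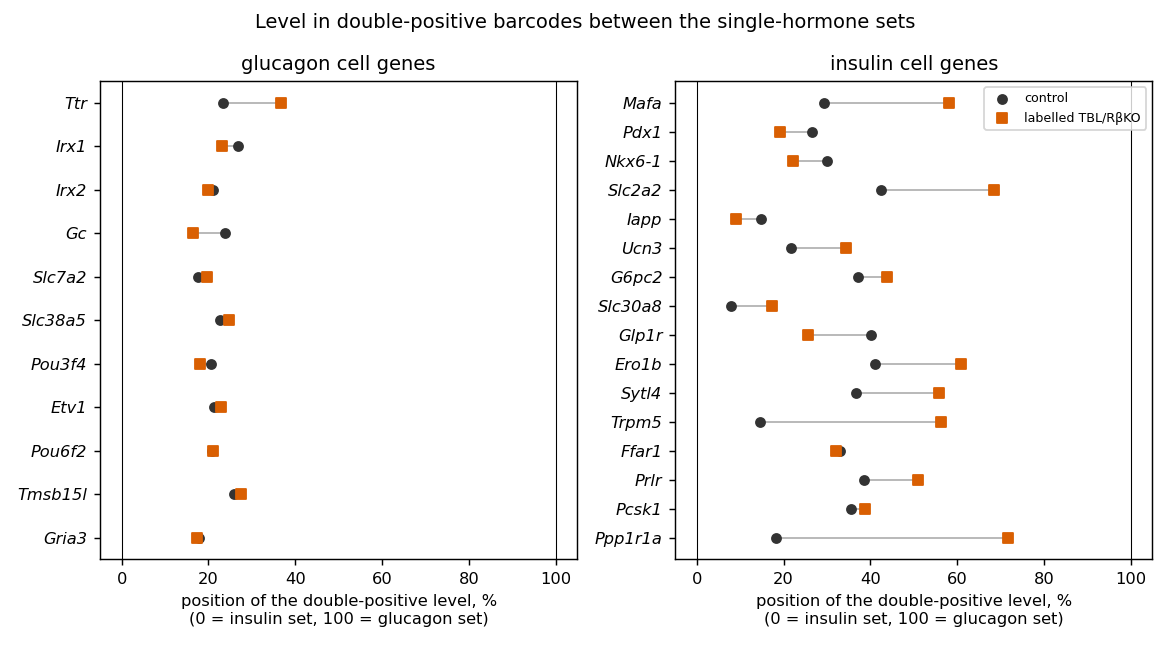
Each marker gives the level of 1 gene in double-positive barcodes on a scale in percent from the insulin set (0) to the glucagon set (100) of the same library, for control (circles) and the library labelled TBL/RβKO (squares), for genes at 10 CPM or more and 2-fold apart between the sets in both libraries. Glucagon cell genes (left) lie between 16.5 and 36.8, and 7 insulin cell genes (right; Mafa, Slc2a2, Ppp1r1a, Trpm5, Ero1b, Sytl4 and Prlr) lie above 50 in the library labelled TBL/RβKO and at 42.5 or less in the control.

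Against the glucagon set 15 of 17 insulin cell genes at 10 CPM or more were 2-fold higher in control members (median log2 ratio 3.76) and 13 of 16 in members from the library labelled TBL/RβKO (3.28). The rule parts members from the glucagon set by insulin, so these counts too describe the choice. Over all genes 2.21% and 3.90% were 2-fold higher in members than in the glucagon set, and 28.0% and 19.1% were 2-fold lower. The count of lower genes depended on the scale. With hormones and mitochondrial genes left out of the CPM, 527 in place of 2475 genes were 2-fold lower in the control, and 1025 in place of 1741 in the other library. The counts of higher genes were then 481 in place of 195 and 512 in place of 355. Of the 7 immediate early genes, which respond to stimulation and to dissociation, 6 were 2-fold lower in members than in the glucagon set in each library, and 4 and 3 were 2-fold higher than in the insulin set. Without hormones and mitochondrial genes 3 and 4 were lower than in the glucagon set, and 2 and 3 higher than in the insulin set.

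Regulators of both programmes met within single barcodes. With each barcode thinned to 5000 UMIs, a UMI of Irx1 or Irx2 together with one of Mafa, Pdx1 or Nkx6-1 was found in 15.9% of control members (10.7 to 22.3), 0.906% of the insulin set and 13.5% of the glucagon set. Members differed from the glucagon set by 2.39 points (-3.14 to 9.02) and from the insulin set by 15.0 points (9.81 to 21.4). In the library labelled TBL/RβKO the shares were 3.89% (1.58 to 7.85), 1.24% and 6.17%, with differences of -2.28 points (-4.94 to 1.85) and 2.65 points (0.141 to 6.65). An excess of members over the glucagon set was not detectable in either library. The difference between members of the libraries was -12.0 points (-18.8 to -5.50). Mafa, Pdx1 or Nkx6-1, with or without Irx1 or Irx2, was found in 77.6% and 56.7% of members and in 24.4% and 12.1% of the glucagon sets, which should lack Mafa and Pdx1. The part of RNA from other cells in the shares of members was not tested. Without thinning both kinds were found in 76.5% and 73.3% of members, at a median depth of 64272 and 67510 UMIs, and in 54.9% and 30.4% of the glucagon sets, at 19386 and 18646 UMIs.

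Few genes lay outside the range of the single-hormone sets. In the control, 1 gene was at least 2-fold over both sets (0.0113% of 8867) and 4 were at least 2-fold under both (0.0451%). The first was Sst, which the rule limits, at 391 CPM against 80.2 and 138 CPM. The others were Vim, Mgp and Sparc, genes of mesenchymal cells, and Ccl5, a chemokine of T cells, all under 1 CPM in members with 5 to 7 UMIs. In the library labelled TBL/RβKO 9 genes were over (0.0983% of 9152) and 2 under both sets (0.0219%). Among those over were Sst at 514 CPM against 230 and 154 CPM, and Vim, Bgn, Tnc, Mgp, Dcn, Cryab and Pnliprp1, of which the first 5 are genes of stromal cells or their matrix. All 166 Pnliprp1 UMIs, of a gene of acinar cells, came from 1 member. The 2 genes under both sets were Cttnbp2 and Lgals3.

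Stromal genes moved with few members. Markers of stromal cells were present in 6 of 180 members of the library labelled TBL/RβKO (3.33%, 1.23 to 7.11), and macrophage markers in 1 of 170 control members. Mgp, a matrix protein gene, was at 187 CPM in all members of the library labelled TBL/RβKO, 45.6% of it in 1 barcode, and at 1.61 CPM (0.982 to 2.48) without the 6. Sparc was at 67.0 and 2.17 CPM, and Vim at 66.0 and 7.24 CPM. Without them 2 genes were over both sets there and 13 were under both, and without the macrophage-marked control member 1 was over and 11 were under. The whole stromal list summed to 2.15 CPM in control members with 2 of 6 markers at 0, 5.15 CPM in the insulin set and 29.3 CPM in the glucagon set, against 265, 45.1 and 116 CPM in the library labelled TBL/RβKO with none at 0. The macrophage list summed to 60.6 and 9.63 CPM in members of the 2 libraries, the endothelial list to 3.64 and 25.9, the B cell list to 44.7 and 21.9, the acinar list to 1.74 and 2.60 and the T cell list to 0.0827 and 0.306 CPM. The ductal list, which holds keratins that endocrine cells also express, summed to 322 and 818 CPM.

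The last question was how double-positive barcodes differed between the libraries. Of 8165 genes at 10 CPM or more in either, 603 (7.39%) were 2-fold higher and 67 (0.821%) 2-fold lower in members of the library labelled TBL/RβKO. The median log2 ratio over these genes was 0.29, and insulin took fewer of the UMIs there. With hormones and mitochondrial genes left out of the CPM, 308 of 9538 genes (3.23%) were higher and 260 (2.73%) lower and the median was -0.18, so changes near these medians depend on the scale. Such differences were not particular to members. Between the insulin sets 693 of 7658 genes (9.05%) were higher and 114 (1.49%) lower on the scale of all UMIs. Without hormones these were 380 (4.05%) and 442 (4.71%) of 9390. Between the glucagon sets 72 of 8939 genes (0.805%) were higher and 14 (0.157%) lower on the scale of all UMIs. Log2 ratios that follow are on the scale of all UMIs unless another is named.

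Glucagon cell genes mostly stayed within 2-fold, as did most genes. Of the 12 of 14 at 10 CPM or more, 0 were 2-fold higher and 0 2-fold lower, against 7.39% and 0.821% of all genes. At such shares few calls would fall among 12 genes, so these counts do not set the list apart. The median log2 ratio was -0.01 on the scale of all UMIs. On the scale without hormones 0 were higher and 1 was lower, against 3.23% and 2.73% of all genes. The median was then -0.46, below the -0.18 of all genes. Irx1 had a log2 ratio of -0.41 (-0.72 to -0.11), Irx2 of -0.21 (-0.45 to 0.04) and Slc7a2, an amino acid transporter gene, of -0.17 (-0.24 to -0.09). Ttr had a ratio of 0.54 (0.51 to 0.56) in members, against 2.37 between the insulin sets and -0.61 between the glucagon sets. Tmsb15l, at 48.0 and 28.9 CPM, had the lowest ratio of the list at -0.73.

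Insulin cell genes differed in a part of the list. Of 17 at 10 CPM or more, 2 were 2-fold higher and 7 lower (median log2 ratio -0.56), against 7.39% and 0.821% of all genes. The list was written with earlier results of these data known, so its counts are no independent evidence. Those results gave Mafa, Slc2a2 and Ppp1r1a as low in insulin cells of the library labelled TBL/RβKO. Without hormones 0 were higher and 9 lower (median -1.01), against 3.23% and 2.73% of all genes. The 7 lower on the scale of all UMIs were led by Ppp1r1a (log2 ratio -3.21), Slc2a2 (-3.07), Mafa (-2.91) and Trpm5 (-2.22). The rest were Sytl4 (-1.92), which encodes granuphilin of the insulin granule, Ero1b (-1.29), an oxidase of disulfide formation, and the prolactin receptor gene Prlr (-1.18). Slc2a2 was at 205 CPM (197 to 213) in control members and 24.3 CPM (21.7 to 27.1) in the other library. These 7 are the genes that lay above 50 on the scale of positions in the library labelled TBL/RβKO. Glp1r, the receptor of the incretin GLP-1, was among the higher genes with a log2 ratio of 1.13, but no gene of the list was 2-fold higher without hormones. Iapp, the amyloid polypeptide secreted with insulin, was at 39078 and 44082 CPM, and Pcsk1, which cleaves proinsulin, at 158 and 168 CPM. Pdx1 (-0.38) and Nkx6-1 (-0.54) were within 2-fold. The insulin sets showed -2.15 for Mafa, -2.24 for Slc2a2 and -2.19 for Ppp1r1a, so the ratios in members were lower for all 3 genes. Between the glucagon sets Mafa had a ratio of -4.88, from 20.9 to 0.707 CPM, and Slc2a2 of -2.91, from 12.0 to 1.61 CPM.

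Mafa and Slc2a2 differed with the insulin level within members of the library labelled TBL/RβKO. Mafa was at 2.08 CPM (0.836 to 4.29) in the 59 members with under 1000 insulin UMIs per 10000 and at 63.9 CPM (59.0 to 69.1) in the other 121. Slc2a2 was at 5.35 CPM (3.17 to 8.46) and 30.9 CPM (27.5 to 34.6). Both stayed under the 380 CPM (369 to 391) of Mafa and 214 CPM (206 to 223) of Slc2a2 in the 128 control members of 1000 or more.

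Genes that were high in insulin cells of the library labelled TBL/RβKO in earlier results of these data were high in its double-positive barcodes too, which is no independent evidence of their direction. All 8 of that list were 2-fold higher, with a median log2 ratio of 4.37, and 8 of 8 were so without hormones. Tmem252, a membrane protein gene, had 0 UMIs in control members and 1107 in the other library (84.6 CPM, 79.7 to 89.7), at least 341-fold higher when 3 UMIs are set as the floor of the control sum. Csn3, a casein gene, was at 0.248 CPM from 3 UMIs and 138 CPM, with a log2 ratio of 9.12 (7.57 to 11.4). S100a6, a calcium-binding protein gene, was at 5.54 and 433 CPM and Glul, the glutamine synthetase gene, at 68.1 and 496 CPM. Relative to the single-hormone sets of the same library, the 6 of 8 that were 2-fold apart lay at a median position of 4.24, close to the insulin set (-24.2 to 12.4). Tmem252 had a UMI in 48.3% of these members, Csn3 in 75.6% and S100a6 in 72.8%. The 5 genes that earlier results gave as low in those insulin cells (Mafa, Slc2a2, Ppp1r1a, the cadherin gene Cdh8 and Vstm2l) were all 2-fold lower, with a median log2 ratio of -2.91, which is no independent evidence either.

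Among the genes with the highest ratios outside the lists were Thrsp, a lipogenic gene, from 0.165 to 45.9 CPM, Tns1, a focal adhesion gene, from 0.165 to 42.6 CPM, and the kinase gene Prkg2, from 0.661 to 64.5 CPM. Each had 8 UMIs or fewer in control members. Between the insulin sets the log2 ratios of Thrsp, Tns1 and Prkg2 were 6.03, 7.48 and 5.07. The others were Csn3, Tmem252 and the stromal or matrix genes Mgp, Bgn, Sparc and Vim, with the chaperone gene Cryab, whose 508 UMIs came by 48.8% from 1 barcode. Among the lowest ratios outside the lists were Nnat (-3.64), from 15.2 to 1.22 CPM, Sgcz (-3.10), from 82.4 to 9.63 CPM, and Ovol2 (-2.52), from 14.1 to 2.45 CPM. The insulin sets had -2.88, -2.07 and -2.21 for these genes. Fcer1g, H2-Ab1 and H2-Aa, genes of immune cells, were also among the 10 lowest, and 1 control member held 97.1% of the H2-Ab1 and 97.2% of the H2-Aa UMIs.

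**Figure D4:**
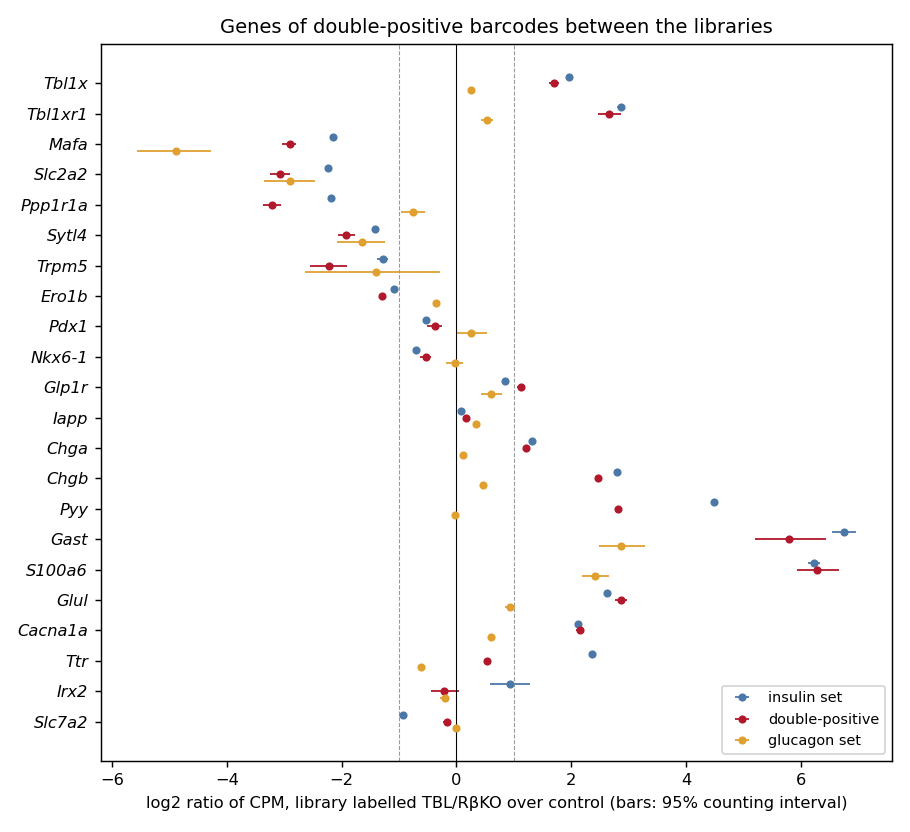
Points give log2 ratios of CPM of the library labelled TBL/RβKO over control for 22 genes in the insulin set, the double-positive barcodes and the glucagon set, bars give 95% counting intervals, and dashed lines mark 2-fold. In double-positive barcodes Slc2a2 (-3.07) and Mafa (-2.91) lie left of the lines and S100a6 (6.29) and Gast (5.79) right of them, while Irx2 and Slc7a2 lie between them.

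Hormone genes of the pancreatic polypeptide family were part of the difference. Pyy, the gene of peptide YY, was at 6006 CPM (5962 to 6050) in control members and 42383 CPM (42272 to 42495) in the library labelled TBL/RβKO (log2 ratio 2.82). Ppy was at 8789 and 28656 CPM, a log2 ratio of 1.71, and 1 barcode held 32.7% of the control UMIs. Between the insulin sets the log2 ratios were larger, at 4.48 for Pyy and 2.86 for Ppy. Between the glucagon sets they were -0.02 and -0.42. In the control, 33 of 170 members had 40 or more Ppy UMIs per 10000 (19.4%, 13.8 to 26.2), against 2.37% of the insulin set and 26.0% of the glucagon set. In the other library these were 131 of 180 (72.8%, 65.7 to 79.1), 54.6% and 25.5%. Members exceeded the insulin set by 17.0 points (11.3 to 23.8) among control barcodes, and by 18.2 points (10.3 to 25.3) in the library labelled TBL/RβKO.

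Members on either side of 40 Ppy UMIs per 10000 were compared within the library labelled TBL/RβKO. In the 131 with 40 or more Ppy UMIs per 10000 Mafa was at 31.6 CPM (28.2 to 35.4), Tmem252 at 107 CPM (100 to 113) and Neurog3, the factor of endocrine progenitors, at 35.0 CPM (31.4 to 38.9). In the other 49 Mafa was at 97.4 CPM (87.0 to 109), Tmem252 at 17.8 CPM (13.5 to 23.0) and Neurog3 at 3.69 CPM (1.90 to 6.44). A single barcode held a large part of the Neurog3 UMIs of all members of this library, as given below. Gcg was nearly even, at 37472 and 37062 CPM, and Irx2 at 21.1 CPM (18.3 to 24.1) and 20.6 CPM (16.0 to 26.1).

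Of 15 genes shared by endocrine cells, 3 were 2-fold higher and 0 lower (median log2 ratio 0.38), against 7.39% of all genes higher. Without hormones 1 was higher, Chgb, and the median was -0.07, so its sign depends on the scale. Chga, the chromogranin A gene, was at 4914 CPM (4875 to 4954) in control members and 11367 CPM (11309 to 11425) in the library labelled TBL/RβKO. Chgb, that of chromogranin B, was at 618 CPM (604 to 632) and 3399 CPM (3367 to 3430), and the insulin sets were at 696 and 4804 CPM. Log2 ratios between the insulin sets were 1.31 for Chga and 2.79 for Chgb, against 1.21 and 2.46 in members. The third was the transcription factor gene Neurod1, at 138 and 276 CPM, while Pax6, Isl1, Nkx2-2, Insm1 and Rfx6 lay between -0.07 and 0.42.

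Of the 11 progenitor genes, 5 were at 10 CPM or more, of which 3 were 2-fold higher and 0 lower (median log2 ratio 1.01). Without hormones 2 of 6 were higher (0.47). Of all genes 7.39% and 3.23% were higher on these scales. The rise was not particular to members. Between the insulin sets 5 of 5 progenitor genes were higher (1.47), and 2 of 5 without hormones (0.98). Gast, the gastrin gene, was at 1.98 CPM (1.27 to 2.95) and 110 CPM (104 to 116), and 24.0% of the latter came from 1 barcode. Neurog3 was at 1.90 and 27.2 CPM, 37.1% of the latter from 1 barcode, and had a UMI in 7.65% and 27.8% of members. Cd81, a membrane protein gene, was at 79.2 and 160 CPM. Aldh1a3, a marker of dedifferentiated beta cells, was under 10 CPM, at 0.165 and 3.75 CPM.

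Within the corepressor list 3 of 6 genes, the targeted genes among them, were 2-fold higher and 0 lower (median log2 ratio 0.91), against 2 higher without hormones (0.46). Ncor1 was at 210 and 313 CPM, Hdac3 at 14.8 and 12.7 CPM and Gps2 at 27.6 and 33.6 CPM. Of the genes of stimulus-secretion coupling 3 of 11 were 2-fold higher and 0 lower (0.64), and 1 without hormones (0.20). Of all genes 7.39% were higher on the first scale and 3.23% on the second. The 3 coupling genes were Cacna1a, a calcium channel subunit gene, at 155 and 687 CPM, Gcgr, the glucagon receptor gene, at 11.1 and 27.4 CPM, and Glp1r. Between the insulin sets their log2 ratios were 2.12, 1.02 and 0.84. The channel genes of the beta-cell resting potential, Abcc8 (-0.46) and Kcnj11 (-0.23), were within 2-fold. Immediate early genes (0 of 7 past 2-fold, median -0.12) and genes of the unfolded protein response (0 of 7, median 0.23) did not pass 2-fold in either direction, although on the scale without hormones 1 immediate early gene was lower.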

How the data were processed

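Raw UMI counts per gene and barcode were deposited by the authors for 2 libraries, 1 per group, made with Cell Ranger 7.1.0 on GRCm39 (mm39) per the submitters' processing notes. The values were whole numbers, and barcodes of 6000 or more genes, which the study left out, were present. Barcodes were kept by the rule stated above. UMIs were summed over barcodes as CPM, and genes at 10 CPM or more in the higher sum were compared at 2-fold. Shares have exact binomial intervals, levels exact Poisson intervals, ratios exact conditional intervals and differences of shares Newcombe intervals, all at 95% and for counting error only. UMIs of 1 barcode are not independent, so intervals of levels are too narrow. A sum of 0 was set to 3 UMIs. Scrublet in scanpy 1.11.5 scored doublets among all barcodes above 500 genes, and members with high scores were kept. Software was Python 3.11.15, numpy 2.4.6, scipy 1.17.1, pandas 2.3.3 and matplotlib 3.10.9. Intervals of ratios were tested on simulated counts drawn independently, so that test does not cover the dependence of UMIs within barcodes. Named genes were the 10 highest and 10 lowest log2 ratios among genes with 100 or more UMIs in both sums together, the hormones set aside, and the fixed lists. Members and lists were chosen with earlier results of these data known, and the rule for non-endocrine barcodes after the data were seen. Gene positions are from GENCODE M39 on GRCm39. Alternatives were other limits, the study's upper limit of genes, other scales of the CPM, subtraction of free RNA and members left out by score, markers or hormone level. Values of some listed genes are not reported here, and the set of glucagon cell regulators searched per barcode was reduced to Irx1 and Irx2 after the data were seen.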

Additional observations from a re-analysis of the deposited data

Results flagged for a closer look

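Stromal and matrix genes had log2 ratios of members over the insulin set that were past 2-fold in opposite directions in the libraries. Mgp had -3.02 for the control against 2.53 in the library labelled TBL/RβKO, Sparc -3.43 and 1.62, Vim -2.20 and 2.14, and Bgn -1.43 and 2.42. The difference between the libraries was not tested. Control members held 7, 5, 5 and 1 UMIs of these genes, and 6 members of the library labelled TBL/RβKO held markers of stromal cells.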

How the results depend on the processing

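No paired analysis was possible because each group has 1 library. Leaving out members with non-endocrine markers or with under 1000 insulin UMIs per 10000 was chosen after seeing the data. Shares of kept barcodes are given for the control and then the library labelled TBL/RβKO, followed by their difference and the shares of Gcg barcodes. With fewer than 6000 genes they were 1.84% and 1.5%, -0.332 points, 4.70% and 2.77%, depth was 0.231 and 0.441 of the summed medians, and 415 genes were 2-fold lower between the libraries. With limits of 150 and 50 the values were 8.91% and 5.77%, -3.14 points, 28.6% and 13.4%, at depths of 0.261 and 0.826. With limits of 600 and 200 they were 2.28% and 2.51%, and 8% and 6.67% of Gcg barcodes. Without the highest Scrublet scores they were 1.59% and 3.08%, and 5.37% and 7.51%, at depths of 0.274 and 0.783. With Ppy under 40 they were 2.89% and 1.17%, -1.71 points, and 4.14% of Gcg barcodes in the library labelled TBL/RβKO. Without members under 1000 they were 2.70% and 2.90%, 9.18% and 7.36%, at depths of 1.12 and 0.968. The difference of the shares changed sign under 3 alternatives, and its interval lay above 0 under others, with free RNA subtracted (1.14 points, 0.343 to 1.95) and without the highest Scrublet scores (1.48, 0.823 to 2.16). With a minimum of 50 CPM 293 genes were higher and 20 lower between the libraries, and without hormones and mitochondrial genes 308 and 260. On the latter scale, against the sets, control members had 42 genes lower than the insulin set, 481 higher and 527 lower than the glucagon set, 2 over and 9 under both, and members of the library labelled TBL/RβKO had 38, 1025 lower than the glucagon set, 18 and 4. Without members with non-endocrine markers 11 genes were under both sets in the control, and 2 over and 13 under in the other library. Without thinning, 76.5% and 73.3% of members held regulators of both cell types. Of 979 values for 89 genes under 11 alternatives 913 stayed on their side of 2-fold. Direction was compared only for genes past 2-fold, so smaller ratios may have changed sign. The 913 include 89 values at the minimum of 50 CPM, which leaves the ratios as they were. Of the genes past 2-fold, 5 log2 ratios turned: with fewer than 6000 genes H2-Aa (0.27) and H2-Ab1 (0.27), without the highest Scrublet scores Bgn (-1.03) and H2-Aa (1.78), and without non-endocrine markers H2-Aa (0.94). The cause was not tested. With 1 library a group, differences between animals or preparations cannot be told apart from the genotype.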

Other observations

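Barcodes outside the filter, with 2500 detected genes or fewer or 10% or more mitochondrial UMIs, also held both hormones. Of 2320 such control barcodes, 515 (22.2%, 20.5 to 23.9) passed the insulin, Gcg and Sst limits, with a median of 709 UMIs and 352 genes. In the library labelled TBL/RβKO 109 of 1654 did (6.59%, 5.44 to 7.89), with a median of 774 UMIs and 342 genes. Ghrl, the ghrelin gene, was under 3 CPM in members of both libraries, at 0.496 and 2.90 CPM.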
